A study of Homo sapiens with 3 samples.

Results

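The genes described here are 9 genes of antigen presentation, out of the 19266 genes listed in each table, in KYSE510, an established human cell line from a squamous cell carcinoma of the esophagus (ESCC). They were chosen by symbol: the class I heavy chains HLA-B and HLA-C, B2M, the peptide transporter genes TAP1 and TAP2, the transactivator genes NLRC5 and CIITA, and the class II genes CD74 and HLA-DRA. Cells were infected for 24 h with a lentivirus coding for shRNA#1 (sh1) or shRNA#2 (sh2) against the transcript TCONS_02256997, or for a scrambled shRNA (control), and all 3 groups were then kept for 48 h in 4 µM puromycin. The study looked for genes that may be targets of this transcript. Its own level was not analysed here, so the knockdown itself was not checked. There was 1 sample per group, each with 3 numbered tables, which were treated as 3 libraries (n = 3) with total expected counts of 14660821 to 16092417. The labels do not say whether these tables are separate cultures, so each p-value measures the spread among 3 tables of 1 sample only, and that spread may be technical.

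Class I molecules carry peptides made in the cell to the cell surface, where CD8+ T cells read them. Each consists of a heavy chain, such as HLA-B or HLA-C, and the light chain beta-2 microglobulin, the product of B2M. Peptides cut by the proteasome enter the endoplasmic reticulum through the transporter formed by TAP1 and TAP2 and are loaded there by tapasin and chaperones. Class II molecules carry peptides from the endosomes and are mostly made by professional antigen-presenting cells, although epithelial cells can make them under interferon-gamma. HLA-DRA is the invariant alpha chain of HLA-DR, and CD74 is the chaperone that keeps the class II groove occupied until the endosome. NLRC5 and CIITA are related transactivators of class I and class II genes that act through the RFX, CREB/ATF and NF-Y factors bound at their promoters.

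All 9 genes passed the filter on low counts. With sh1, 5 were called higher than control, 3 lower and 1 was not called. With sh2, 7 were called higher, 0 lower and 2 were not called. Over all 13580 genes tested, 69.3% were called with sh1 (34.7% higher, 34.6% lower) and 68.5% with sh2 (34.2% higher, 34.3% lower), at a Benjamini-Hochberg adjusted p below 0.05 in edgeR's quasi-likelihood test. The share of called genes among the 9 is therefore read against a background of about that size, and the directions and sizes carry the description. The median log2 change of the 9 genes was 0.09 with sh1 and 0.61 with sh2, beside 0.01 and 0.0046 over all genes tested. At 1.5-fold or more, 2 genes were called higher with sh1 and 5 with sh2, and 0 lower with either. Over all genes tested, 24.1% passed this size with sh1 (11.3% higher, 12.8% lower) and 22.2% with sh2 (9.74% higher, 12.4% lower). Both comparisons use the same control libraries.

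Markers of the labelled cell type were present. The 7 squamous markers KRT5, KRT14, KRT6A, TP63, SFN, PERP and DSG3 summed to 2068 to 2111 CPM (TMM-scaled read abundance, comparable between libraries but not between genes) with sh1, 2571 to 2669 with sh2 and 3577 to 3619 in control. With sh1, 6 of them were called lower, and with sh2 5 were called lower and 2 higher. The background was 34.6% lower with sh1, and 34.3% lower and 34.2% higher with sh2. Of the B-cell markers, MS4A1 was at 0 in all 9 libraries, whereas CD79A, a chain of the B-cell receptor complex, had 5 counts over the sh1 libraries, 7 over the sh2 libraries and 1 over the control libraries. The 6 markers of other leukocytes, of which CD1C was at 0 throughout, summed to 5.50 to 6.98 CPM with sh1, 5.18 to 7.16 with sh2 and 3.89 to 4.19 in control. Among them CD14, a monocyte marker, averaged 0.837 CPM with sh1, 1.82 with sh2 and 1.01 in control. It was called higher with sh2 (0.85 on the log2 scale) and lower with sh1 than with sh2 (-1.12), and was not called with sh1 against control (-0.27). CSF1R, a macrophage growth factor receptor, was called higher with sh1 (1.93) and with sh2 (1.41). It had few counts, 60, 45 and 16 over the libraries of sh1, sh2 and control. PTPRC, the leukocyte common antigen, was called higher with sh1 (0.63) but not with sh2 (0.39), on 98, 89 and 65 counts in the same order. ITGAX was called with neither (0.41 with sh1, 0.42 with sh2). The 3 fibroblast markers summed to 48.0 to 69.9 CPM, nearly all of it COL1A1, and the 3 endothelial markers to 12.9 to 20.4. The part of these marker shifts in the results was not tested.

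HLA-B, a classical class I heavy chain, rose with both hairpins. It had 1146, 1161 and 1225 CPM with sh1 and 1331, 1335 and 1381 CPM with sh2, against 745, 791 and 810.2 CPM in control. Every hairpin library was above every control library, and the sh2 libraries lay above the sh1 libraries. The log2 fold change was 0.59 ± 0.030 (SE) with sh1, or 1.5-fold, and 0.79 ± 0.029 with sh2, or 1.73-fold (edgeR adjusted p = 3.61e-17 and 3.74e-20). In a bulk sample, a change in the RNA of each cell cannot be told apart from a change in which cells are present.

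HLA-C, its close relative on chromosome 6, moved by nearly the same amount. It had 1551, 1572 and 1689 CPM with sh1 and 1729, 1797 and 1872 CPM with sh2, against 1018, 1022 and 1069.9 CPM in control. The hairpin libraries again lay above all control libraries, with changes of 0.63 ± 0.031 with sh1 and 0.80 ± 0.031 with sh2 (edgeR adjusted p = 1.93e-17 and 7.72e-20). HLA-B and HLA-C share long stretches of sequence and differ between people, so the split of reads between their reference transcripts is uncertain. Their summed counts had 2697 to 2914 CPM with sh1 and 3060 to 3207 with sh2, against 1768 to 1880 in control, and changed by 0.61 ± 0.028 with sh1 and 0.79 ± 0.028 with sh2. The ratio of HLA-B to HLA-C in FPKM, which is scaled by transcript length, had a median of 0.721 with sh1, 0.750 with sh2 and 0.739 in control, with overlapping ranges. With the rows of HLA-B, HLA-C, HLA-E, HLA-F and HLA-G summed, the changes were smaller, 0.45 ± 0.027 with sh1 and 0.67 ± 0.027 with sh2.

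B2M, the light chain shared by all these molecules, also rose with both hairpins, but unevenly. It had 1745, 1840.0 and 1894 CPM with sh1 and 2646, 2680.2 and 2791 CPM with sh2, against 1522, 1578 and 1645 CPM in control. The groups did not overlap, and the sh1 libraries stood much nearer to control than the sh2 libraries did. The changes were 0.21 ± 0.029 with sh1, or 1.16-fold, and 0.77 ± 0.029 with sh2, or 1.71-fold (edgeR adjusted p = 3.12e-07 and 5.21e-20). The direct test between the hairpins gave -0.57 ± 0.029 for sh1 against sh2 (edgeR adjusted p = 9.6e-17). The FPKM of B2M divided by that of HLA-B plus HLA-C had a median of 1.07 with sh1, 1.44 with sh2 and 1.44 in control. In the sh1 libraries this ratio, at 1.07 to 1.11, lay below every sh2 and control library.

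**Figure D1:**
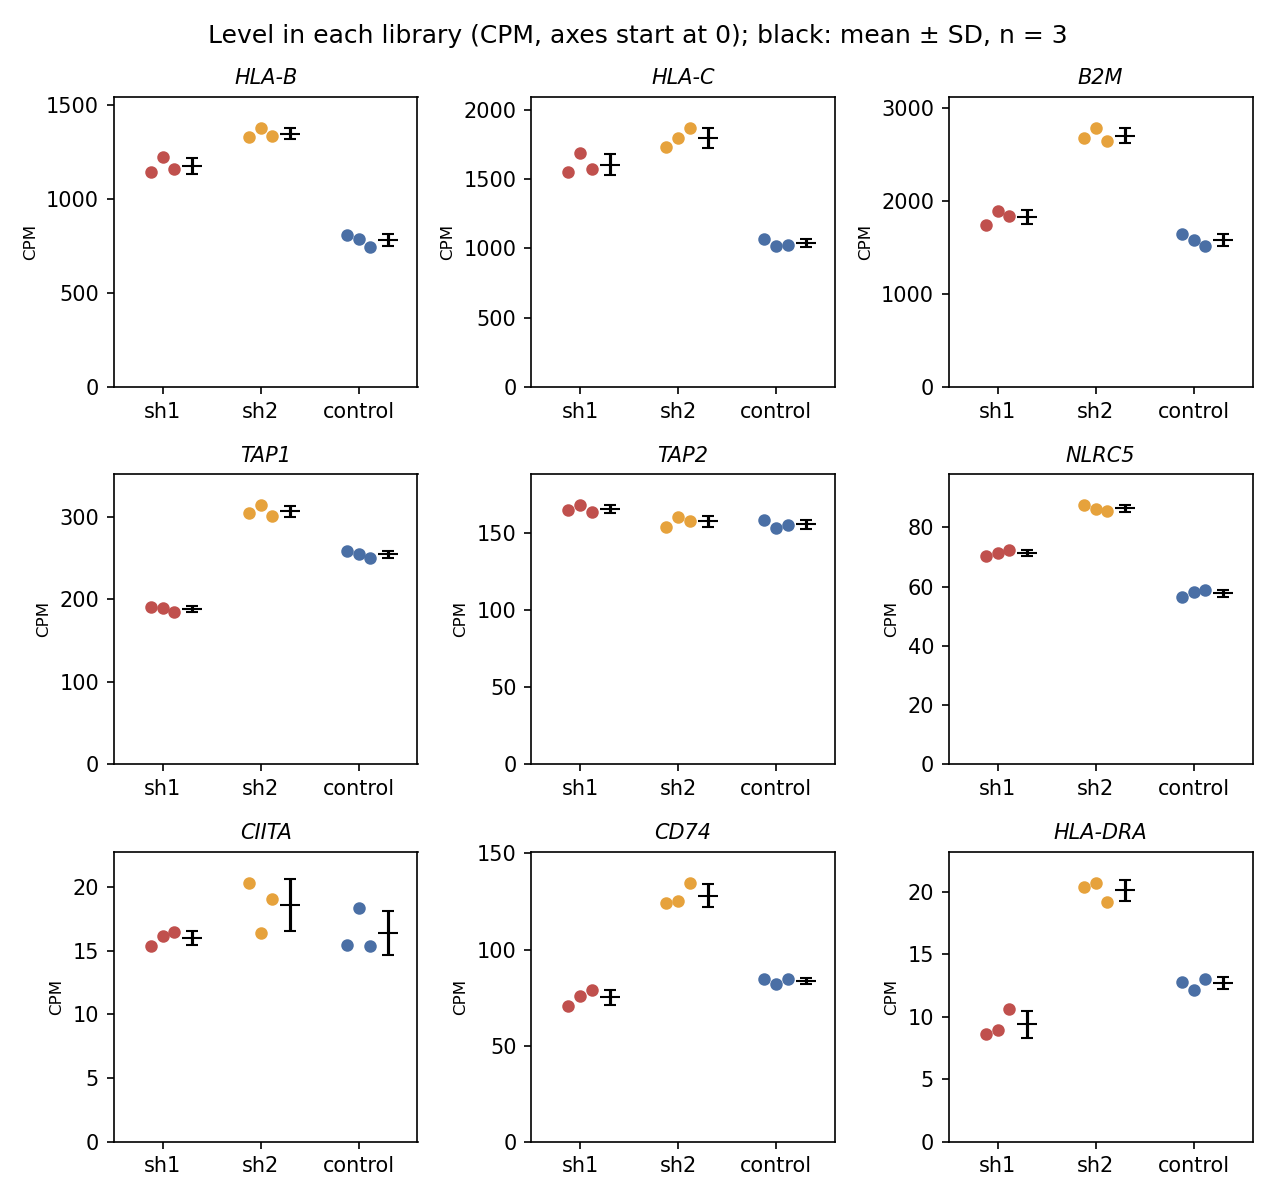
CPM of each of the 9 genes in the 3 libraries of sh1, sh2 and control (points), with the mean and SD beside them in black and every axis starting at 0. HLA-B, HLA-C, B2M and NLRC5 stand above control with both hairpins, whereas TAP1, CD74 and HLA-DRA stand below control with sh1 and above it with sh2.

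NLRC5, the transactivator of class I genes, rose with both hairpins as well. It had 70.3, 71.3 and 72.4 CPM with sh1 and 85.4, 86.1 and 87.5 CPM with sh2, against 56.3, 58.0 and 58.8 CPM in control. The 3 groups were separate, in the order sh2, sh1 and control from high to low. The changes were 0.31 ± 0.040 with sh1 and 0.58 ± 0.038 with sh2 (edgeR adjusted p = 6.74e-08 and 3.06e-14). HLA-B, HLA-C, B2M and NLRC5 were thus the 4 genes of the 9 called higher with each hairpin, and 0 were called lower with each, where 19.4% of all genes tested were called higher with each and 20.2% lower with each.

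The promoters of HLA-B, HLA-C and B2M are shown because these genes were called higher with each hairpin, though B2M by less with sh1. That of TAP1 is shown because it was called lower with sh1. RefSeq sequences (GRCh38.p14, not the hg19 build of the submitters) were found for 6 of the 9 genes, and each line gives the 250 bases before the gene start, 5′ to 3′ on the gene's strand. Capitals mark matches, on either strand, to the interferon-stimulated response element (TTTC, any 2 bases, then TTTC), the NF-kB consensus, the CCAAT box (CCAAT) bound by NF-Y and the CRE half-site (TGACG), and matches that overlap run together. The windows lie at chr6:31357180-31357429, minus strand, for HLA-B, chr6:31272093-31272342, minus strand, for HLA-C, chr15:44711267-44711516, plus strand, for B2M, and chr6:32853705-32853954, minus strand, for the upstream of 2 listed TAP1 starts.
HLA-B: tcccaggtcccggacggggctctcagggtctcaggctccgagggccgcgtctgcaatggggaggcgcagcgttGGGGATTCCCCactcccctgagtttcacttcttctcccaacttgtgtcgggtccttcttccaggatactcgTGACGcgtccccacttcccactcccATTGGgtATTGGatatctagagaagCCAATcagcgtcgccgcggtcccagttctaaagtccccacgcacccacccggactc
HLA-C: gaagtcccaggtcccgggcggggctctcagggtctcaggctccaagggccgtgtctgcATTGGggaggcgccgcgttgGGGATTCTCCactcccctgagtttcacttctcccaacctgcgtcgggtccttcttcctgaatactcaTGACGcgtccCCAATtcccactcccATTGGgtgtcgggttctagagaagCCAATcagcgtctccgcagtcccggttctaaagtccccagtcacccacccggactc
B2M: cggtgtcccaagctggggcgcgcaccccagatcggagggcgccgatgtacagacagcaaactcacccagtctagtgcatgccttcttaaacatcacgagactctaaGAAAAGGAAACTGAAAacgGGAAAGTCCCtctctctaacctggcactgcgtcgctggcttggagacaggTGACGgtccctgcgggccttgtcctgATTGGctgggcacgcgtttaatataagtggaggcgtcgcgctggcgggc
TAP1: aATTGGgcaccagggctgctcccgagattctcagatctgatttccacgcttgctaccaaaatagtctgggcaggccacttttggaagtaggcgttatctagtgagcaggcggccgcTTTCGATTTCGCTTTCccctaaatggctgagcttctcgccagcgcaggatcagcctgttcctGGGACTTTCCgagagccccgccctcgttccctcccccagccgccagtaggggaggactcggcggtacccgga

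The windows of HLA-B and HLA-C had 226 identical bases in a global alignment, with 20 mismatches and 8 gap positions. All 3 class I windows held an NF-kB match, a CRE half-site and at least 1 CCAAT box. Counted from the gene start, the CRE half-site began at -106 in HLA-B, -105 in HLA-C and -75 in B2M. Overlapping pairs of the interferon element stood at -144 to -129 in B2M and at -134 to -119 in TAP1. TAP1 also held an NF-kB match and 1 CCAAT box, but no CRE half-site in this window. The window of the other listed TAP1 start held no match to any of the 4 motifs. Of the windows not printed, that of TAP2 held an interferon element at -58 and a CRE half-site at -35. That of CD74 held NF-kB matches and a CCAAT box, but no CRE half-site. Whether the matches go with the changes in RNA was not tested. Of 35116 promoter windows of the same length, 3.02% held the interferon element, 9.96% the NF-kB consensus, 32.0% the CCAAT box and 21.2% the CRE half-site. A match describes letters and shows no binding.

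TAP1, an ATP-binding subunit of the peptide transporter, went in opposite directions with the hairpins. It had 184, 189.7 and 191 CPM with sh1 and 301, 305 and 314 CPM with sh2, against 250.3, 255 and 259 CPM in control. All sh1 libraries lay below control and all sh2 libraries above it. TAP1 fell with sh1 (log2 change -0.43 ± 0.030) and rose with sh2 by 0.27 ± 0.029 (edgeR adjusted p = 1.09e-13 and 1.72e-09). Between the hairpins, sh1 was 1.63-fold below sh2 (-0.70 ± 0.030, edgeR adjusted p = 8.13e-19).

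TAP2, the partner subunit, was called slightly higher with sh1 and was not called with sh2. It had 164, 165 and 168 CPM with sh1 and 154, 158 and 161 CPM with sh2, against 153, 156 and 159 CPM in control. The sh2 and control libraries overlapped, and the sh1 libraries lay just above both. The change was 0.09 ± 0.032 with sh1 (edgeR adjusted p = 0.0155) and 0.02 ± 0.032 with sh2, which was not called (edgeR adjusted p = 0.669). The sh1 call was lost without sh1 replicate 2 (0.08, edgeR adjusted p = 0.0652) and without control replicate 2 (0.08, edgeR adjusted p = 0.0681). On the log2(FPKM + 1) scale the change with sh2 was instead 0.13 and was called (limma adjusted p = 0.00251). The transcript length that the authors' tables assign to TAP2 was 4234 to 4301 bases with sh1, 4113 to 4169 with sh2 and 4404 to 4594 in control, and FPKM is divided by it. The FPKM ratio of TAP1 to TAP2 was 1.82 to 1.87 with sh1, 3.07 to 3.13 with sh2 and 2.75 to 2.88 in control.

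CD74, the class II chaperone, also went in opposite directions. It had 70.9, 75.7 and 78.8 CPM with sh1 and 124, 125 and 135 CPM with sh2, against 81.9, 84.5 and 84.6 CPM in control. The sh1 libraries lay below all control libraries and the sh2 libraries above them. CD74 fell with sh1 (-0.16 ± 0.043) and rose with sh2 by 0.61 ± 0.040 (edgeR adjusted p = 0.00227 and 2.17e-14).

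HLA-DRA, the HLA-DR alpha chain, had the largest difference between the hairpins among the 9 genes. It had 8.62, 8.94 and 10.6 CPM with sh1 and 19.2, 20.4 and 20.7 CPM with sh2, against 12.2, 12.8 and 13.1 CPM in control, on 415, 959 and 578 counts over the libraries of sh1, sh2 and control. The groups were separate, with sh1 lowest and sh2 highest. The changes were -0.43 ± 0.093 with sh1 and 0.66 ± 0.079 with sh2 (edgeR adjusted p = 0.000144 and 1.18e-08), and sh1 was 2.14-fold below sh2 (-1.10 ± 0.085, edgeR adjusted p = 1.15e-12). TAP1, CD74 and HLA-DRA were the 3 genes of the 9 called in opposite directions, as were 12.7% of all genes tested.

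CIITA, the transactivator on which class II transcription depends, was not called against control. It had 15.4, 16.1 and 16.5 CPM with sh1 and 16.4, 19.0 and 20.3 CPM with sh2, against 15.4, 15.4 and 18.4 CPM in control. The libraries of all 3 groups overlapped. The changes were -0.03 ± 0.087 with sh1 (edgeR adjusted p = 0.755) and 0.18 ± 0.084 with sh2 (edgeR adjusted p = 0.0541). The second of these was called without sh2 replicate 2 (0.26, edgeR adjusted p = 0.00801) and without control replicate 2 (0.27, edgeR adjusted p = 0.0119). It was also called by limma on log2(FPKM + 1) (0.19, limma adjusted p = 0.028) and on log2(FPKM + 0.1) (0.24, limma adjusted p = 0.0292), and not by limma on log2(FPKM + 1) without a filter or by DESeq2 (adjusted p = 0.146).

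**Figure D2:**
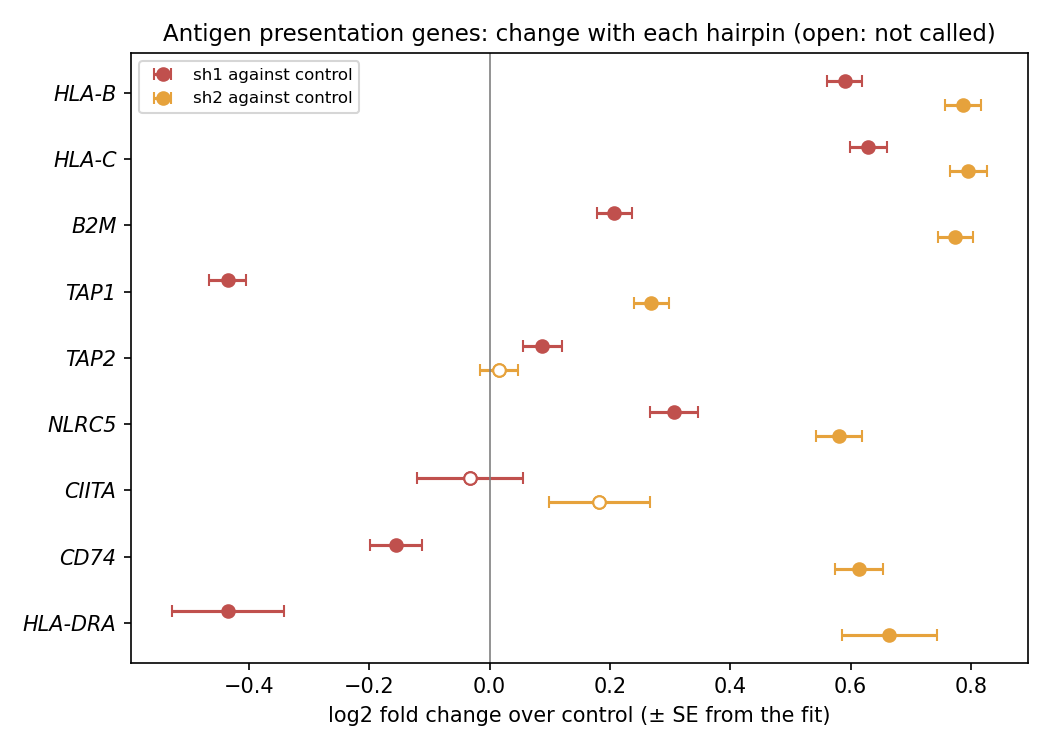
Log2 fold change of each gene with sh1 and with sh2 over the shared control libraries, with the SE from the fit (n = 3 libraries per group, open points not called). The hairpins lie on the same side of 0 for HLA-B, HLA-C, B2M and NLRC5 and on opposite sides for TAP1, CD74 and HLA-DRA.

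Set against each other, the hairpins differed for all 9 genes, 1 higher and 8 lower with sh1 than with sh2, where 69.8% of all genes tested were called (34.2% higher, 35.6% lower). At 1.5-fold or more, 3 of the 9 were lower with sh1 and 0 higher, where 23.3% of all genes tested passed this size (11.3% lower, 12% higher). For HLA-B and HLA-C the difference was small, -0.20 ± 0.029 and -0.17 ± 0.030, and for NLRC5 it was -0.28 ± 0.037. The TAP2 and CIITA differences (0.07 ± 0.032 and -0.21 ± 0.085, edgeR adjusted p = 0.0445 and 0.0251) were not called by DESeq2 (adjusted p = 0.091 and 0.0755). Limma on log2(FPKM + 1) did not call them either (0.036 and -0.14, limma adjusted p = 0.326 and 0.0997). They were also lost without single libraries: for both genes sh1 replicate 1, sh1 replicate 2, sh2 replicate 1 or sh2 replicate 3, with edgeR adjusted p of 0.052 to 0.183. In CPM, the libraries of the compared groups did not overlap for 8 of 9 genes with sh1 against control, 7 with sh2 against control and 8 between the hairpins, beside 71.9%, 70.3% and 71.9% of all genes tested.

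By length-scaled level, B2M led in every group, with 1896 ± 73.0 FPKM with sh1, 2795 ± 84.6 with sh2 and 1639 ± 60.7 in control (SD, n = 3), where it ranked 9 among 19266 genes by mean. HLA-C followed with 1021 ± 45.0 FPKM with sh1, 1140.2 ± 41.0 with sh2 and 659 ± 16.7 in control. HLA-B came next, at 732 ± 24.5 FPKM with sh1, 834 ± 18.4 with sh2 and 485 ± 19.9 in control. TAP1, CD74 and TAP2 followed in each group, at 97.2 ± 0.903, 55.3 ± 0.797 and 34.3 ± 1.23 FPKM in control. The order of the lower genes differed: NLRC5 stood above HLA-DRA with sh1 (10.5 ± 0.137 and 7.26 ± 0.806 FPKM), and below it with sh2 (12.6 ± 0.200 and 15.5 ± 0.681) and in control (8.47 ± 0.207 and 9.80 ± 0.346). CIITA was lowest throughout, at 3.88 ± 0.256 FPKM with sh1, 4.37 ± 0.307 with sh2 and 3.71 ± 0.384 in control. No neighbours in these orders overlapped between libraries of a group.

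**Figure D3:**
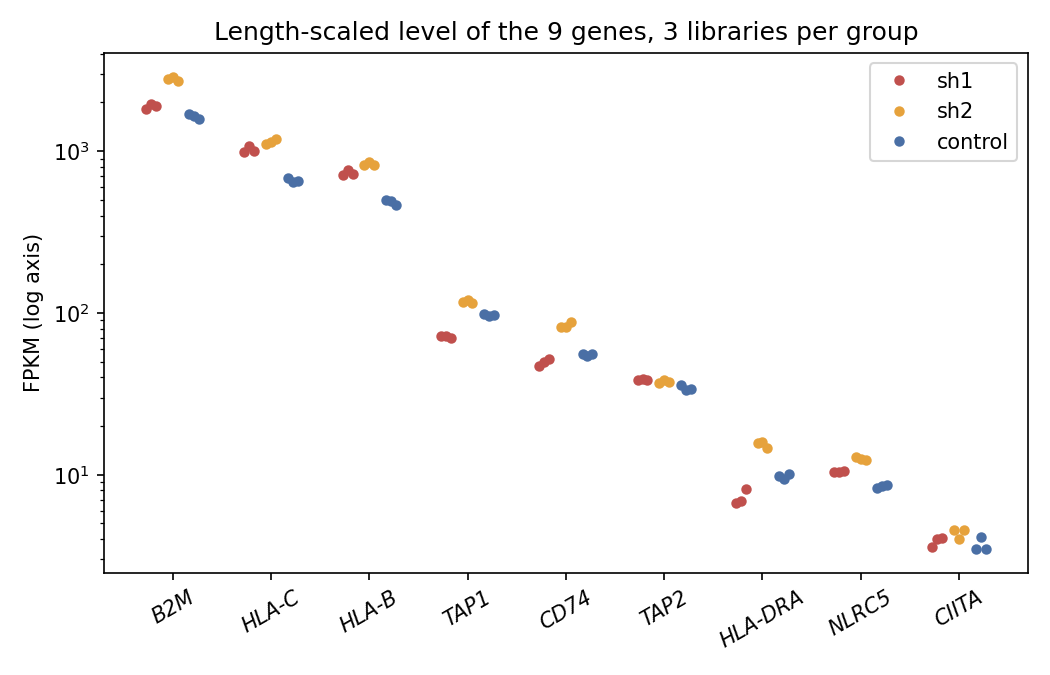
FPKM of each gene in the 3 libraries of sh1, sh2 and control on a log axis, ordered by the mean in control. Levels run from B2M, above 1500 FPKM in all libraries, to CIITA, below 5 FPKM in all libraries.

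The heavy chains and related molecules outside the 9 genes did not share one direction. Of 12 tested of 13 listed, 5 were called higher and 3 lower with sh1, and 4 higher and 4 lower with sh2. The background was 34.7% higher and 34.6% lower with sh1, and 34.2% and 34.3% with sh2. The medians were 0.10 with sh1 and 0.02 with sh2. HLA-E, another non-classical heavy chain, named after its values were seen, had 397 ± 17.2 CPM with sh1, 481 ± 11.7 with sh2 and 471 ± 4.73 in control. It fell with sh1 (-0.25 ± 0.030) and was not called with sh2 (0.03 ± 0.029). HLA-F, a non-classical heavy chain, had 136 ± 1.98 CPM with sh1, 229.6 ± 10.6 with sh2 and 134 ± 3.89 in control, rose with sh2 by 0.77 ± 0.035 and was at 0.01 ± 0.037 with sh1, which was not called. HLA-G, which restrains natural killer cells at the placenta, had 9.79 ± 1.31 CPM with sh1, 9.54 ± 1.26 with sh2 and 4.96 ± 0.384 in control and rose by 0.98 ± 0.130 with sh1 and 0.94 ± 0.129 with sh2, and reads of these rows may be shared with other class I genes. MR1, which presents microbial vitamin B metabolites, fell (-0.96 ± 0.055 with sh1, -0.21 ± 0.049 with sh2). HFE, a regulator of iron uptake, changed by 1.69 ± 0.391 with sh1 and 1.82 ± 0.378 with sh2, on only 16 counts over the control libraries.

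Genes of the peptide loading list were mostly higher with sh1, where 34.7% of all genes tested were higher and 34.6% lower. That list also holds genes of general protein folding and translocation (CALR, CANX, PDIA3, UGGT1, SEC61A1 and SEC61B) and SPPL2A, a protease of CD74. Its counts are therefore not of class I loading alone. Of 12 tested, 11 were called higher and 1 lower with sh1 (median 0.43), and 7 higher and 3 lower with sh2 (median 0.32), where the background was 34.2% higher and 34.3% lower. The endoplasmic reticulum chaperone genes CALR and PDIA3, which belong to the loading complex and to general protein folding, rose under sh1 (1.46 ± 0.025 for CALR, 1.02 ± 0.026 for PDIA3) and, less, under sh2 (0.33 ± 0.025 for CALR, 0.52 ± 0.027 for PDIA3), with sh1 called above sh2 for both. CANX, coding for calnexin, rose by 0.81 ± 0.025 with sh1 and fell with sh2 (-0.58 ± 0.025). SEC61A1, the pore of the translocon, rose by 1.08 ± 0.028 with sh1 and 0.40 ± 0.028 with sh2.

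TAPBP, coding for tapasin, which joins class I molecules to the transporter, had 671 ± 23.4 CPM with sh1, 559 ± 17.9 with sh2 and 554 ± 14.9 in control, rose with sh1 by 0.28 ± 0.030 and was not called with sh2 (0.01 ± 0.030). Its relative TAPBPL, a peptide editor, rose by 0.61 ± 0.041 with sh1 and 0.63 ± 0.041 with sh2. ERAP1, which trims peptides to class I length, had 192 ± 2.57 CPM with sh1, 88.5 ± 1.73 with sh2 and 153 ± 1.74 in control, rising with sh1 by 0.32 ± 0.031 and falling with sh2 (-0.79 ± 0.034). ERAP2, the related trimming enzyme, rose by 0.26 ± 0.027 with sh1 and 0.33 ± 0.027 with sh2. LNPEP, an endosomal aminopeptidase, fell with sh1 (-0.29 ± 0.076) and rose with sh2 (0.32 ± 0.069).

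Immunoproteasome genes, like TAP1, were mostly lower with sh1 and higher with sh2. Of 6 tested, 1 was called higher and 5 lower with sh1 (median -0.27), and 5 higher and 1 lower with sh2 (median 0.40). The background was 34.7% higher and 34.6% lower with sh1, and 34.2% and 34.3% with sh2. All 6 were lower with sh1 than with sh2, where 35.6% of all genes tested were lower. PSMB9, a catalytic subunit whose gene start lies 488 bases from the upstream TAP1 start on the opposite strand in RefSeq, had 74.5, 75.5 and 83.8 CPM with sh1 and 148, 157 and 159 CPM with sh2, against 100.3, 112 and 116 CPM in control. The groups were separate, and the changes were -0.49 ± 0.049 with sh1 and 0.50 ± 0.044 with sh2 (edgeR adjusted p = 3.08e-10 and 2.3e-11). Another catalytic subunit gene, PSMB8, fell with sh1 (-0.17 ± 0.041) and rose with sh2 (0.46 ± 0.038), and so did PSMB10 (-0.37 ± 0.051 for sh1, 0.21 ± 0.046 for sh2). POMP, a chaperone of assembly for every proteasome, was the 1 gene that rose with sh1 (0.81 ± 0.047), and it rose with sh2 by 1.07 ± 0.046.

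Of 15 tested class II genes and processing enzymes, sh1 was called below sh2 for 10 and above it for 4, where 35.6% of all genes tested were lower and 34.2% higher. Against control, 4 were higher and 5 lower with sh1 (background 34.7% and 34.6%), and 9 higher and 3 lower with sh2 (background 34.2% and 34.3%), with medians of -0.16 with sh1 and 0.41 with sh2. HLA-DRB1, the partner chain of HLA-DRA, had 12.1 ± 0.670 CPM with sh1, 21.6 ± 0.924 with sh2 and 16.2 ± 1.16 in control, with changes of -0.42 ± 0.083 with sh1 and 0.41 ± 0.072 with sh2. Taking HLA-DRA with the DR, DP and DQ chain genes of the list, a set chosen after the values were seen, 6 of 7 were tested, all 6 were higher with sh2 and lower with sh1 than with sh2, and 3 were lower with sh1 than control. Over all genes tested, 34.2% were higher with sh2, 35.6% lower with sh1 than with sh2 and 34.6% lower with sh1 than control. None of the DM and DO chain genes of the list, of which HLA-DMA and HLA-DOA are named after their values were seen, was called higher with sh2: HLA-DMA, the partner of HLA-DMB, fell (-0.28), HLA-DOB fell (-0.59) and HLA-DOA and HLA-DMB were not called (-0.51 and -0.19). HLA-DRB5, HLA-DPA1 and HLA-DQA1 had few counts, with 0.746, 2.06 and 1.04 CPM with sh1, where a floor of 3 counts is at most 0.204 CPM, and reads may be shared among the DR beta genes.

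HLA-DMB, a chain of the class II peptide exchanger, fell with sh1 (-1.32 ± 0.216, on 68 counts with sh1 and 176 in control) and was not called with sh2 (-0.19 ± 0.181). HLA-DOB, a chain of the inhibitor of that exchanger, fell with sh2 (-0.59 ± 0.098) and was not called with sh1 (0.20 ± 0.089). CTSS and CTSD, endosomal proteases of which CTSS trims the CD74 chain, rose under sh1 (0.60 ± 0.038 for CTSS, 0.86 ± 0.026 for CTSD) and under sh2 (0.91 ± 0.037 for CTSS, 0.61 ± 0.026 for CTSD).

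**Figure D4:**
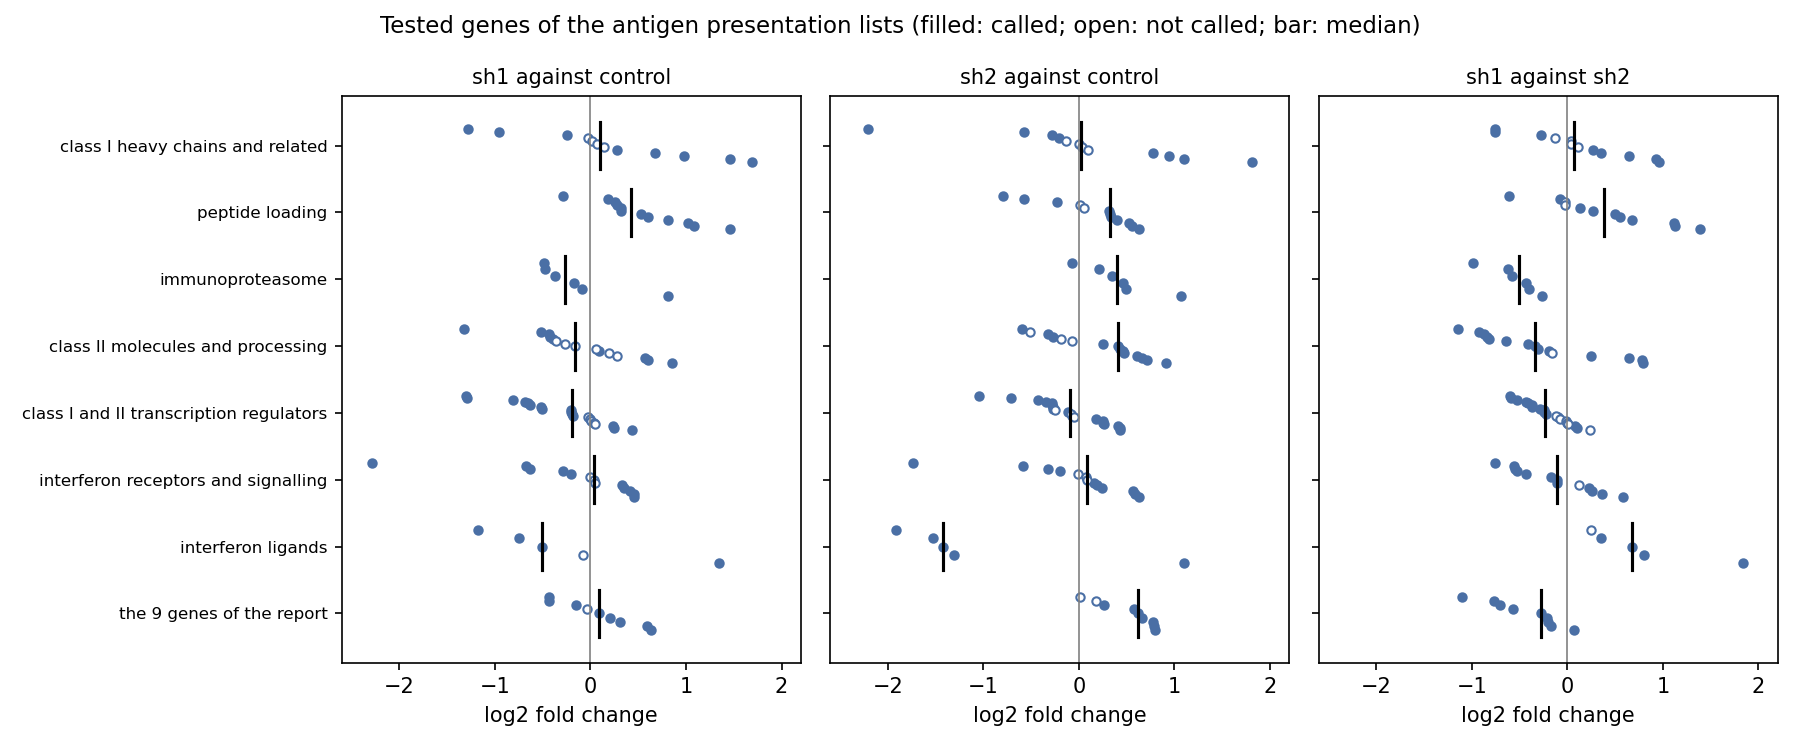
Log2 fold change of every tested gene in each list for sh1 against control, sh2 against control and sh1 against sh2 (filled points called, open points not called, bars list medians). The 6 immunoproteasome genes all lie below 0 in the comparison of sh1 with sh2, and the 5 tested interferon ligands all lie above 0 there.

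Of 20 tested regulator genes, 3 were called higher and 12 lower with sh1, and 7 higher and 10 lower with sh2 (background 34.7% higher and 34.6% lower with sh1, 34.2% and 34.3% with sh2). The medians were -0.20 with sh1 and -0.10 with sh2. NFKB1 and NFKB2, precursors of NF-kB subunits, fell under sh1 (log2 changes of -1.29 ± 0.035 for NFKB1, -1.30 ± 0.035 for NFKB2) and under sh2 (-1.04 ± 0.033 for NFKB1, -0.71 ± 0.033 for NFKB2). IRF1, an activator at interferon elements, had 149, 151 and 153 CPM with sh1 and 216, 217 and 219 CPM with sh2, against 258, 266 and 271 CPM in control. Every hairpin library of IRF1 was below every control library, lowest with sh1, with changes of -0.81 ± 0.030 with sh1 and -0.28 ± 0.029 with sh2.

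RFX5, a DNA-binding subunit of the RFX complex, fell too (-0.63 ± 0.040 with sh1 and -0.34 ± 0.038 with sh2). Its partner RFXANK was not called with sh1 (0.04 ± 0.051) and rose with sh2 (0.26 ± 0.049), and RFXAP was called with neither (-0.02 ± 0.122 with sh1 and -0.25 ± 0.124 with sh2). REL, an NF-kB subunit, and ATF1, a CREB/ATF factor, fell under sh1 (log2 changes of -0.68 for REL, -0.65 for ATF1) and under sh2 (-0.27 for REL, -0.28 for ATF1). IRF9, part of the complex activated by type I interferon, fell with sh1 (-0.18 ± 0.035) and rose with sh2 (0.41 ± 0.033).

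Interferon receptors and their signalling genes were split, with 5 called higher and 5 lower of 13 with sh1, and 6 higher and 4 lower with sh2. The background was 34.7% higher and 34.6% lower with sh1, and 34.2% and 34.3% with sh2. The medians were 0.04 with sh1 and 0.08 with sh2. SOCS3, a feedback inhibitor of cytokine signalling, fell (-2.29 ± 0.057 with sh1, -1.73 ± 0.052 with sh2), whereas USP18, an inhibitor of type I interferon signalling, rose by 0.46 ± 0.036 with sh1 and 0.63 ± 0.035 with sh2. IFNGR2, a chain of the interferon-gamma receptor, fell with sh1 (-0.67 ± 0.053) and was not called with sh2 (0.08 ± 0.047). The other chain of that receptor, IFNGR1, went the other way and is named after its values were seen. It fell with sh2 (-0.58 ± 0.029), was not called with sh1 (-0.0023 ± 0.029) and was called higher with sh1 than with sh2 (0.58). JAK2, the kinase bound to that receptor, was not called with sh1 (0.04 ± 0.079) and rose with sh2 (0.59 ± 0.072). PTPN2, a phosphatase that limits JAK signalling, fell (-0.63 ± 0.046 with sh1, -0.19 ± 0.043 with sh2).

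Most of the tested interferon genes were lower with the hairpins. Of 7 listed, 5 were tested, with 1 called higher and 3 lower with sh1, and 1 higher and 4 lower with sh2 (background 34.7% higher and 34.6% lower with sh1, 34.2% and 34.3% with sh2, medians -0.50 with sh1 and -1.42 with sh2). IFNL1, a type III interferon of epithelia, had 11.1 ± 0.361 CPM with sh1, 6.34 ± 0.433 with sh2 and 15.7 ± 0.893 in control, and fell with both hairpins (-0.50 ± 0.085 with sh1 and -1.31 ± 0.094 with sh2). Its near-identical relatives IFNL2 and IFNL3, between which reads may be shared, fell under sh1 (log2 changes of -1.17 for IFNL2, -0.75 for IFNL3) and under sh2 (-1.52 for IFNL2, -1.42 for IFNL3). By length-scaled level, IFNL1 averaged 13.3 ± 0.425 FPKM with sh1, 7.59 ± 0.490 with sh2 and 18.9 ± 1.11 in control. IFNB1 had 34, 10 and 37 counts over the libraries of sh1, sh2 and control, and was lower with sh2 (-1.91 ± 0.504) and not called with sh1 (-0.08 ± 0.384). IFNE, an epithelial interferon, was higher under both hairpins (1.35 ± 0.274 for sh1, 1.10 ± 0.280 for sh2), on 43 counts in control. IFNG, coding for interferon-gamma, was at 0 in all hairpin libraries and at 0.022 CPM in control, below the floor of 3 counts in a library.

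The genes whose log2 CPM followed HLA-B most closely over the 9 libraries were CACYBP, POMP and IFITM10, each with a Pearson correlation of 0.998. For B2M they were MYL12B (0.997), GHITM (0.995) and MRPL28 (0.995), and for TAP1 they were TRMT1L (0.997), CDC42SE1 (0.997) and CREBL2 (0.996). The 9 points of each correlation fall into 3 groups that share a sample, and 395 of 12958 genes compared reached 0.95 with B2M, 549 with HLA-B and 549 with TAP1. These correlations describe the 3 samples and carry no test.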

How the data were processed

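RNA from KYSE510 cells was extracted with Trizol and made into BGISEQ-500 libraries, per the labels' protocols. Per the submitters' processing notes, RSEM 1.2.12, HISAT2 2.0.4, DESeq2 1.4.5, Bowtie2 2.2.5 and the build hg19 were used, with no role stated for each. The strand setting of the counting is not stated, so genes with overlapping, antisense or near-identical partners are uncertain. Per the file headers, the 9 deposited tables hold, for every Entrez gene, an expected count estimated by the authors and not scaled to a common total, beside TPM and FPKM. The TPM values deposited by the authors were not used, and the FPKM values deposited by the authors served to compare levels between genes and for alternatives. Symbols came from RefSeq (19223 of 19266 identifiers).

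Expected counts were rounded and analysed in R 4.3.3 with edgeR 4.0.16 (filterByExpr, TMM, 1 quasi-likelihood fit of all 9 libraries with group as the only term), calling genes at a Benjamini-Hochberg adjusted p below 0.05 over 13580 genes. Each SE was obtained by dividing the size of the change by the root of its F statistic. A floor of 3 counts was 0.187 to 0.204 CPM, for counting error only. Between tables of a sample, the chi-square per degree of freedom was 1.41 to 2.44 (genes averaging 20 counts or more), above sampling noise, so tables were not merged. On simulated counts for sh1 against control, of 50 genes per size, 22% were called for a 1.1-fold change and 76% for a 1.25-fold change. At 1.5-fold, 86% were called, and 96% at 2-fold. Only those genes were changed in the simulation. All genes were given the same spread between libraries beyond counting noise, a coefficient of variation of 2.33%. In the data 69.3% of genes tested were called with sh1 and the spread differed by gene, so these shares may not hold for the real test. Alternatives were DESeq2 1.42.0, limma 3.58.1, other scalings and filters, a replicate block, sums and single libraries left out. The 9 genes and all lists were chosen with earlier results of these data known. Genes outside the 9 were named if called at a log2 change of at least 0.585 in any comparison (at most 8 per list), or from a short fixed set of loading, immunoproteasome and regulator genes. Some others outside this rule were named after their values were seen or to say what a list holds. Some genes of these lists are not reported here. Genes most alike had the highest correlation over 9 libraries among those with a mean of at least 1 CPM.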

Additional observations from a re-analysis of the deposited data

Results flagged for a closer look

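The effects of the hairpins differed by a direct test for all 9 genes, which flagged each of them. The log2 change of sh1 against sh2 was -0.20 for HLA-B, -0.17 for HLA-C, -0.57 for B2M, -0.70 for TAP1, 0.072 for TAP2, -0.28 for NLRC5, -0.21 for CIITA, -0.77 for CD74 and -1.10 for HLA-DRA. The largest edgeR adjusted p was 0.0445, for TAP2. The TAP2 and CIITA differences were not called by DESeq2 or by limma on log2(FPKM + 1). At 69.8% of all genes tested called between the hairpins, such a difference was common in these data, and each hairpin is represented by 1 sample. For TAP1, CD74 and HLA-DRA the hairpins were called in opposite directions against control.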

How the results depend on the processing

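Over 525 recomputed log2 changes for the 9 genes, 500 were counted as the same, 18 lost the call, 7 gained it and 0 reversed a called direction. The 525 include changes of summed class I rows, set beside HLA-B and HLA-C. They also include untested values with the 3 libraries of each sample summed. Those have no threshold and were counted as the same when within the SD among libraries of the main value. Changes that were not called could cross 0: CIITA with sh1 ranged over -0.075 to 0.068 and TAP2 with sh2 over -0.0025 to 0.13. All 25 exceptions were for TAP2 or CIITA. The counts of the 9 genes called stayed within 7 to 8 with sh1 against control, 7 to 9 with sh2 against control and 7 to 9 between the hairpins over the alternatives, and all genes called within 8540 to 9532, 8364 to 9384 and 8514 to 9541. Leaving out 1 library at a time gave 7 to 8, 7 to 8 and 7 to 9 of the 9 genes. The tables' numbers did not pair them: the correlation of deviations from the group means for tables of the same number was -0.077 to 0.043. With the table number as a replicate block, 9431, 9295 and 9501 genes were called in the 3 comparisons. With the 3 tables of each sample summed there is no spread left to test. The depth gives 415 to 959 counts per group for HLA-DRA and 708 to 886 for CIITA, which limits what can be said of their smaller changes.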

Other observations

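Stress-induced class I relatives that bind the NKG2D receptor of natural killer cells, rather than presenting peptide, moved apart from each other. MICB had 92.3 ± 2.05 CPM with sh1, 72.3 ± 3.16 with sh2 and 33.6 ± 0.732 in control (SD, n = 3) and rose with both hairpins (1.46 ± 0.045 with sh1 and 1.10 ± 0.046 with sh2, edgeR adjusted p = 2.13e-22 and 6.06e-19). ULBP1 had 4.77 ± 0.544 CPM with sh1, 2.49 ± 0.268 with sh2 and 11.6 ± 1.25 in control and fell with both (-1.28 ± 0.122 with sh1 and -2.21 ± 0.137 with sh2, edgeR adjusted p = 1.3e-10 and 7.8e-15). ULBP3 rose with sh1 (0.67 ± 0.082) and fell with sh2 (-0.28 ± 0.093). ULBP2 fell with sh2 (-0.58 ± 0.061) and was not called with sh1 (0.07 ± 0.057).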
